A study of Homo sapiens with 5 samples.

Results

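miR-210 is the microRNA that the MIR210 gene encodes, and both of its mature products, miR-210-3p (hsa-miR-210-3p in the tables) and miR-210-5p (hsa-miR-210-5p), were followed here as 2 of 2565 human miRNA names counted in every library. They were taken from the count tables by name. The cells were MCF10A, an immortalized mammary epithelial line, grown in all groups in DMEM/F12 with horse serum, epidermal growth factor, insulin, cholera toxin and hydrocortisone. Of 5 small RNA libraries, 3 came from cells kept on uncoated culture plates (attached) and 2 from cells kept on a poly-HEMA coating, which prevents adhesion (detached). By their time label the attached cells were taken at 0 h and the detached cells at 24 h, whereas the design description has both groups cultured for 24 h. RNAs of 18 to 24 nt were size-selected from 50 µg of total RNA. The sources used here name no oxygen level and no hypoxic treatment. Whether replicates were separate cultures is likewise not stated, so p-values reflect how much these libraries vary, and that variation may be technical.

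A miRNA gene is transcribed as part of a longer RNA, from which a hairpin is cut. The hairpin is then diced into a duplex of a 5p and a 3p strand. One strand is usually retained in Argonaute as the guide, and the other, the passenger, is mostly degraded. miR-210 is known as a direct transcriptional target of the hypoxia-inducible factors HIF1 and HIF2 in many cell types, and its 3p strand is the usual guide, which represses mRNAs such as that of the iron-sulfur cluster scaffold ISCU. The comparison asks whether miRNAs differ between adherent and suspended mammary epithelial cells.

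The hairpin lies on chromosome 11 from 568089 to 568198 on the minus strand (GRCh38), inside the long noncoding RNA gene MIR210HG. In GENCODE 29 MIR210HG runs from 565660 to 568457 on the same strand, and 0 of its exons overlap the hairpin, which is therefore intronic. The RefSeq sequences (GRCh38.p14) of the hairpin and of both strands are shown because all values below refer to these 2 strands. Both names matched a RefSeq entry. In the hairpin the capitals mark the 5p strand (bases 28 to 49) and then the 3p strand (bases 66 to 87). In the mature sequences the capitals mark the seed, bases 2 to 8, with which a miRNA pairs to its targets.
MIR210 hairpin: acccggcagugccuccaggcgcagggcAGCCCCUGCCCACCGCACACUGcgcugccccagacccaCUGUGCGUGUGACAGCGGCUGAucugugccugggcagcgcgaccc
miR-210-3p: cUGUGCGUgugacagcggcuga
miR-210-5p: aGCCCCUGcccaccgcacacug

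The strands are both 22 bases long, at genome positions 568112 to 568133 for 3p and 568150 to 568171 for 5p, with 16 bases of loop and flanking stem between them. Their seeds differ from each other, and among 2370 human mature names listed by RefSeq, 0 others shared the seed of either strand, so no seed relatives were counted beside them. GC content was 63.6% in miR-210-3p and 72.7% in miR-210-5p, against a median of 52.2% over all those mature names. Folded with RNAfold, the 110-base hairpin had a minimum free energy of -59.5 kcal/mol, with 17 of the 22 bases of 3p and 18 of the 22 bases of 5p paired.

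The promoter of MIR210HG is shown because hypoxia-inducible factors bind DNA at a short core, ACGTG or GCGTG. The window (RefSeq, GRCh38.p14, chr11:568408-568707, minus strand) runs from 250 bases before to 50 bases after the annotated start, and capitals mark ACGTG.
MIR210HG promoter: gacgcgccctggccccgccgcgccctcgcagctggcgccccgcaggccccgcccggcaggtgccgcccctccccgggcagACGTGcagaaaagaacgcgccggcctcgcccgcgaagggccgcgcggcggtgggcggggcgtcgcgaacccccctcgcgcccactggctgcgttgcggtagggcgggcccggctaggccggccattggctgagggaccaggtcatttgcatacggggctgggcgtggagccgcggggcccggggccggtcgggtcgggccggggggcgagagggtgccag

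Searched on both strands, ACGTG occurred once, its first base 170 bases before the start, and GCGTG once, 9 bases before it. Of 35116 promoter windows of the same 300-base length, 21.4% held ACGTG and 36.5% held GCGTG on either strand. The window is GC-rich, at 80.0% against a median of 58.7%. These matches describe letters in the window only, since binding was not measured.

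Libraries held 8805009 to 15793173 counts on human miRNAs, which made up 97.1% to 98.7% of all named small RNA counts. Levels are given as CPM, counts per 1000000 human miRNA counts, without correction for length, since mature miRNAs are of nearly equal length. The limit that 3 counts set lay between 0.190 and 0.341 CPM. Attached replicate 2 stood apart: over 697 tested miRNAs its Spearman correlation with the other libraries was 0.812 to 0.857, against 0.927 to 0.961 among the other 4. Results on miR-210, and others that moved with it by over 1.5 times, are therefore given with and without it. The epithelial markers miR-200c-3p, miR-141-3p, miR-200b-3p, miR-205-5p and miR-31-5p summed to 41717 to 120905 CPM per library, with the lowest sum in attached replicate 2. The markers were divided there: miR-141-3p was at its highest of all libraries, at 21962.5 CPM, and the others were at their lowest. The summed markers of other cell types were far lower, at most 57.4 CPM for the mesenchymal, 31.7 CPM for the endothelial, 13.8 CPM for the erythroid, 12.0 CPM for the leukocyte, 11.7 CPM for the muscle and 0.775 CPM for the liver markers. The mesenchymal sum ran from 3.78 to 11.7 CPM with attachment and was 57.4 and 17.5 CPM without. The erythroid sum likewise ran from 4.88 to 6.58 CPM with attachment and was 11.1 and 13.8 CPM without. Not all markers moved: miR-451a averaged 2.84 CPM with attachment and 8.29 CPM without, but miR-486-5p 2.94 and 3.42 CPM. Of the mesenchymal markers, miR-143-3p averaged 5.37 and 24.3 CPM and miR-145-5p 0.658 and 12.3 CPM. The mesenchymal markers miR-199a-3p and miR-214-3p reached at most 1.01 CPM in any library. The part of either sum in the results on miR-210 was not tested.

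The guide strand miR-210-3p was abundant in every library and higher in both detached libraries than in all 3 attached ones, by a margin that did not exceed the spread among attached libraries. Its level was 1245 CPM in attached replicate 1, 1567 CPM in replicate 2 and 4332 CPM in replicate 3, against 5654 CPM in detached replicate 1 and 5521 CPM in replicate 2. The detached libraries lay close together, while attached replicate 3 lay nearer to them than to the other attached libraries. The attached mean was 2381 ± 1697 CPM (SD, n = 3) and the detached mean 5588 ± 94.2 CPM (SD, n = 2), a ratio of 2.35. The highest attached library was 3.48 times the lowest, and the lower detached library 1.27 times the highest attached one.

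These levels rest on 13796 to 44713 counts per attached library and on 89298 and 58156 counts per detached one, so counting error is small: the exact Poisson 95% interval in attached replicate 1 was 1225 to 1265 CPM. Intervals cover counting error only and treat each read as a separate molecule, so they are too narrow if reads are copies of one another. The spread among attached libraries lies far outside these intervals. Among human miRNA names, miR-210-3p ranked 55, 44 and 33 in the attached and 25 and 29 in the detached libraries.

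The passenger strand miR-210-5p was scarce and also higher in both detached libraries. Counts were 57 in attached replicate 1, 4 in replicate 2 and 101 in replicate 3, against 395 in detached replicate 1 and 350 in replicate 2. As levels these were 4.69, 0.454 and 9.79 CPM with attachment, against 25.0 and 33.2 CPM without. Attached replicate 2, whose exact Poisson interval was 0.124 to 1.16 CPM, lay an order of magnitude below the other attached libraries. The attached mean was 4.98 ± 4.67 CPM (SD, n = 3) and the detached mean 29.1 ± 5.81 CPM (SD, n = 2), a ratio of 5.85. The lower detached library was 2.56 times the highest attached one, and their intervals, 22.6 to 27.6 and 7.97 to 11.9 CPM, did not overlap.

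**Figure D1:**
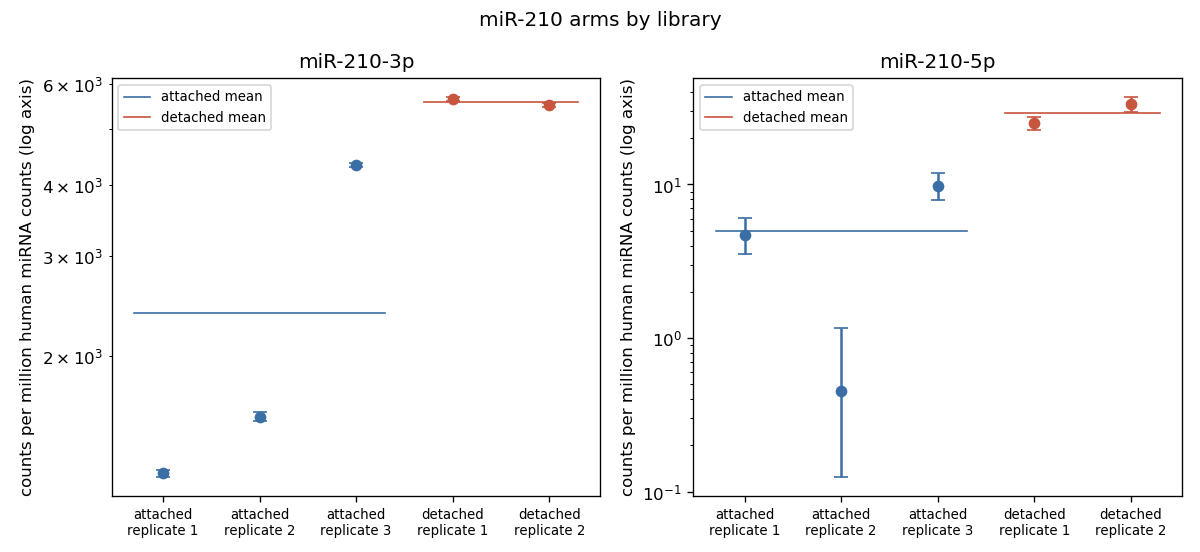
Level of each strand of miR-210 in each library, in counts per 1000000 human miRNA counts on log axes, with points for libraries, bars for the exact Poisson 95% interval and lines for group means. Both detached libraries lie above all 3 attached ones for either strand, and miR-210-5p in attached replicate 2, at 0.454 CPM, is the lowest point.

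Neither strand passed the test across all miRNAs. With edgeR's quasi-likelihood test on all 5 libraries, miR-210-3p had a log2 fold change of 1.07 (SE 0.61, adjusted p = 0.735) and miR-210-5p one of 2.44 (SE 0.92, adjusted p = 0.577). At adjusted p under 0.05 edgeR called 0 of 697 miRNAs higher (0%) and 0 lower. At unadjusted p under 0.05 it gave 33 higher (4.73%), miR-210-5p among them, and 16 lower (2.3%). Both strands had detached libraries wholly above attached ones, as did 18.1% of tested miRNAs (126 of 697). An exact permutation test of log2 CPM over libraries gave p = 0.2 for either strand (two-sided). The smallest p that 3 against 2 libraries allow is 0.1.

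Whether the groups overlapped in miR-210-3p depended on how libraries were scaled. With TMM factors, which edgeR estimates from the bulk of miRNAs, the attached libraries stood at 1318, 2094 and 3800 CPM and the detached ones at 5686 and 4425 CPM, still without overlap, as in 14.9% of tested miRNAs on that scale. In the authors' deposited table, where counts are divided by size factors, attached replicate 3 held 46161 and detached replicate 2 held 43442 scaled counts, so that the groups overlapped. For miR-210-5p the authors' deposited table held 5.69 to 104 scaled counts per attached library against 261 and 299 per detached one, and these did not overlap. The share of all miRNAs without overlap on that scale was not computed, so whether this is particular to miR-210-5p cannot be said. It was 18.1% of tested miRNAs by CPM and 14.9% with TMM factors. The log2 fold changes in the authors' deposited table were 0.92 (SE 0.74, adjusted p = 0.998) for miR-210-3p and 1.96 (SE 0.86, adjusted p = 0.831) for miR-210-5p. The attached and detached means there were 27142 and 55559 scaled counts for miR-210-3p, and 56.3 and 280 for miR-210-5p. Both log2 fold changes were smaller than the log2 ratios of these means. Of 2991 small RNA rows with an adjusted p in that table, 18 were under 0.05 (0.602%).

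Without attached replicate 2, edgeR gave a log2 fold change of 0.98 (SE 0.53, adjusted p = 0.484) for miR-210-3p and 1.93 (SE 0.52, adjusted p = 0.0551) for miR-210-5p. That fit called 22 of 679 miRNAs higher (3.24%), and neither strand was among them. DESeq2 on the same 4 libraries, added after seeing the data, called miR-210-5p higher (1.98, SE 0.56, adjusted p = 0.0138), as it did 3.7% of 675 miRNAs, and gave 1.03 (SE 0.59, adjusted p = 0.607) for miR-210-3p. With all 5 libraries DESeq2 gave miR-210-5p 2.45 (SE 0.95, adjusted p = 0.291), and called 1.26% of 949 miRNAs higher. Since this library was picked for its deviation in the same counts, the fits without it have a spread made smaller by selection.

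**Figure D2:**
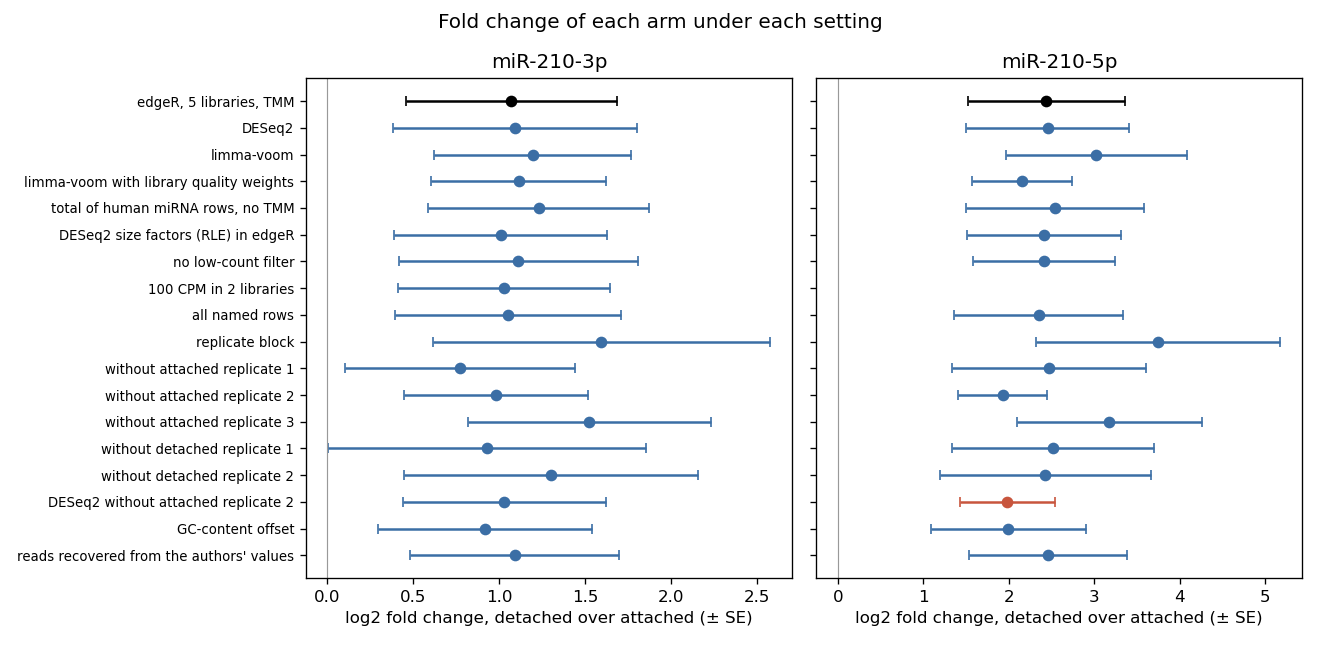
Log2 fold change of detached over attached cells for each strand under each setting, with bars for the standard error. All points lie to the right of 0; the black point is edgeR on 5 libraries, and the red point, miR-210-5p with DESeq2 without attached replicate 2, is the 1 setting with an adjusted p under 0.05.

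The low miR-210-5p in attached replicate 2 was set beside miRNAs of like base composition. On the log2(CPM + 1) scale miR-210-5p in attached replicate 2 lay 2.43 below the mean of the other attached libraries (-2.43), and miR-210-3p 0.57 below it (-0.57). The median over 602 tested miRNAs with a RefSeq sequence was -0.55. Over the 54 with a GC content of at least 70%, the class of miR-210-5p, it was -0.21, with 31 of 54 lower in attached replicate 2 (57.4%), against 389 of all 602 (64.6%). Over the 84 with 60% to under 70%, the class of miR-210-3p, the median was -0.46, with 55 of 84 lower (65.5%). Under 60% the median was -0.62. The classes were not matched on level. With a GC-content offset in edgeR, added after seeing the data, the log2 fold change was 1.99 (SE 0.91, adjusted p = 0.544) for miR-210-5p. For miR-210-3p it was 0.92 (SE 0.62, adjusted p = 0.611). The part of base composition in the low miR-210-5p value itself was not tested.

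In every library 3p exceeded 5p by 166-fold or more, and the 5p share was higher in both detached libraries than in all attached ones. Per 5p count there were 265 counts of 3p in attached replicate 1, 3449 in replicate 2 and 443 in replicate 3, against 226 in detached replicate 1 and 166 in replicate 2. As a share of the counts on both strands, 5p made up 0.375%, 0.0290% and 0.225% with attachment, against 0.440% and 0.598% without. The exact Clopper-Pearson 95% intervals were 0.284% to 0.486% in attached replicate 1 and 0.398% to 0.486% in detached replicate 1, which overlap. In detached replicate 2 the interval was 0.537% to 0.664%, above those of all other libraries. A ratio of strands within a library does not depend on how libraries are scaled.

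**Figure D3:**
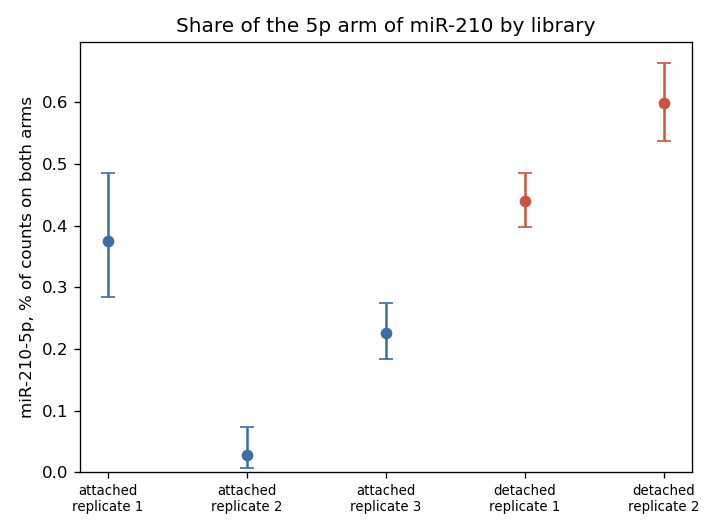
Share of miR-210-5p in the counts on both strands, in percent, for each library, with bars for the exact Clopper-Pearson 95% interval. The detached libraries, at 0.440% and 0.598%, are the highest, attached replicate 1 at 0.375% is close to detached replicate 1, and attached replicate 2 at 0.0290% is the lowest.

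On the log2 scale, with 0.5 added to each count, the 3p to 5p ratio averaged 9.47 ± 1.87 with attachment (SD, n = 3) and 7.60 ± 0.31 without (SD, n = 2). The difference, -1.87, was as large as the SD of the attached libraries and was not resolved by an exact permutation test (p = 0.2, two-sided). Attached replicate 2 set much of it: without that library the difference was -0.81. The fall in ratio restates that 5p had the larger fold change of the 2 strands, and that difference between strands is thus not shown to exceed the spread between libraries.

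Among 178 miRNAs with both strands past the low-count filter, miR-210 had the third highest excess of 3p over 5p, at a mean log2 ratio of 8.72. Its fall in ratio ranked 16 of 178, and 29 of 178 without attached replicate 2. The median difference over all pairs was 0.11, with 84 of 178 below 0, and the median size of a difference, whichever its sign, was 0.88. Both detached libraries lay below all attached ones in 25 pairs (14%), miR-210 among them. The attached libraries spanned 3.54 log2 units for miR-210, more than for most pairs (median 2.01, with 27 pairs above miR-210).

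The pairs with the largest falls were miR-485 (-3.34), miR-106b (-2.81) and miR-4664 (-2.76). Those with the largest rises were miR-33b (4.73), miR-27a (3.64) and miR-548d (3.34). Without attached replicate 2 the falls were -3.77, -1.32 and -1.02 and the rises 4.52, 1.72 and 3.52 in the same order, so that miR-106b, miR-4664 and miR-27a owed much of their place to that library. The change in miR-210 was smaller than that of all 6, with and without it. The scarcer strand averaged only 1.06 CPM in miR-485 and 2.24 CPM in miR-4664, so their ratios rest on few counts. In the others it averaged 7.26 to 263 CPM. Among the 66 pairs whose scarcer strand averaged 5 to 50 CPM, a range that holds miR-210-5p, 29 fell and the median difference was 0.24.

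**Figure D4:**
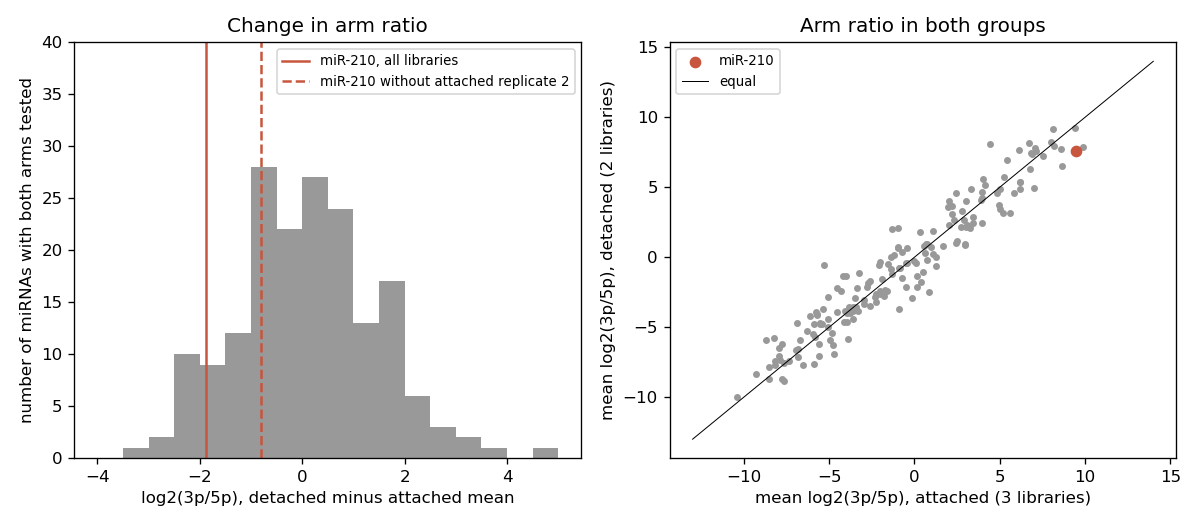
Left, number of miRNAs by the difference in log2(3p/5p) between detached and attached means, with miR-210 at -1.87 (solid line) and at -0.81 without attached replicate 2 (dashed line). Right, mean log2(3p/5p) in detached against attached libraries for the same 178 miRNAs, where miR-210 lies at the upper end at 9.47 and 7.60, below the line of equal ratios.

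By mean level over the 5 libraries, miR-210-3p ranked 34 among human miRNAs, at 3664 ± 2127 CPM (SD, n = 5). Next above it were miR-378a-3p (4772 ± 2008), miR-16-5p (4678 ± 3122) and miR-29c-3p (4346 ± 1144 CPM). Next below were let-7d-5p (3521 ± 1114), miR-27b-3p (3470 ± 1817) and miR-93-5p (3384 ± 949 CPM). The ranges over libraries of all 6 overlapped that of miR-210-3p, so this order is not resolved. Within this group miR-210-3p had the highest log2 fold change, the others running from -0.78 (SE 0.58) for miR-93-5p to 0.56 (SE 0.95) for miR-16-5p. miR-16-5p stood at 331 CPM in attached replicate 2 but at 6630 and 3995 CPM in attached replicates 1 and 3. With replicate 2 left out it gave 0.02 (SE 0.50), and the 6 ran from -0.63 (SE 0.48) for miR-93-5p to 0.23 (SE 0.49) for miR-29c-3p. miR-210-5p ranked 320, at 14.6 CPM.

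Other miRNAs reported as induced by hypoxia in cancer cell lines were divided in sign. Of 18 such names 16 were tested, 7 with positive and 9 with negative log2 fold changes, and edgeR called 0 of them at adjusted p under 0.05, with 0 also at unadjusted p under 0.05. Their median was -0.16, against -0.04 over all 697 tested miRNAs, of which 48.8% were positive. The signs were again 7 and 9 without attached replicate 2, with medians of -0.06 in the list and -0.06 over all tested. Of the 2 names not tested, miR-103a-3p had 0 counts in all libraries, while its close paralog miR-107 averaged 153 CPM (1.53, SE 1.03, and 0.98, SE 0.51, without attached replicate 2). How reads that match both were placed is not stated.

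The smallest p values in this group belonged to miR-24-3p, miR-181b-5p and miR-30b-5p. miR-24-3p, of the miR-23/27/24 clusters, gave -2.10 (SE 1.09, edgeR adjusted p = 0.707), set by 5125 CPM in attached replicate 2 against 636 to 823 CPM elsewhere. Without that library it gave -0.19 (SE 0.47). miR-181b-5p gave -1.01 (SE 0.59), with 2453 ± 403 CPM under attachment (SD, n = 3) and 1532 ± 511 CPM without it (SD, n = 2). miR-30b-5p stood at 654, 897 and 2072 CPM with attachment and at 2169 and 3440 CPM without, with the same 2 attached libraries low as for miR-210-3p. Its log2 fold change was 1.00 (SE 0.60, edgeR adjusted p = 0.735). The most abundant members were miR-125b-5p, at 20489 CPM on average (-0.17, SE 0.56), miR-27a-3p at 16245 CPM (0.94, SE 1.03) and miR-181a-5p at 7829 CPM (-0.83, SE 0.55). These gave -0.43 (SE 0.47), 0.38 (SE 0.47) and -0.55 (SE 0.46) without attached replicate 2, and miR-181b-5p -0.68 (SE 0.46).

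miRNAs reported to repress the mRNA of HIF1A, the oxygen-regulated subunit of HIF1, were followed next. Of 9 names 6 were tested, 5 with positive log2 fold changes, at a median of 0.80 (over all tested miRNAs 48.8% were positive, with a median of -0.04), and edgeR called 0, with 1 higher at unadjusted p under 0.05, as were 4.73% of all. Without attached replicate 2, 4 of the 6 were positive, at a median of 0.69. That 1 was miR-17-5p, with 6 to 35 counts per attached library against 132 and 147 per detached one (2.63, SE 0.75, edgeR adjusted p = 0.381). Without attached replicate 2 edgeR called it (2.37, SE 0.62, adjusted p = 0.0486), along with 3.24% of all miRNAs tested there. Its paralogs miR-20a-5p (1.35, SE 1.04, mean 6914 CPM) and miR-20b-5p (1.28, SE 1.01) differ from it by few bases, so the split of reads among the 3 is uncertain. They gave 0.79 (SE 0.50) and 0.76 (SE 0.63) without attached replicate 2. The other abundant members were miR-18a-5p, at 2678 CPM on average (0.10, SE 1.20), and miR-138-5p, at 966 CPM (-0.56, SE 0.59). miR-18a-5p stood at 55.4 CPM in attached replicate 2 against 2464 and 5043 CPM in the other attached libraries, and turned to -0.48 (SE 0.48) without that library. miR-138-5p gave -0.38 (SE 0.49) there. miR-155-5p had 0 counts in all libraries.

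**Figure D5:**
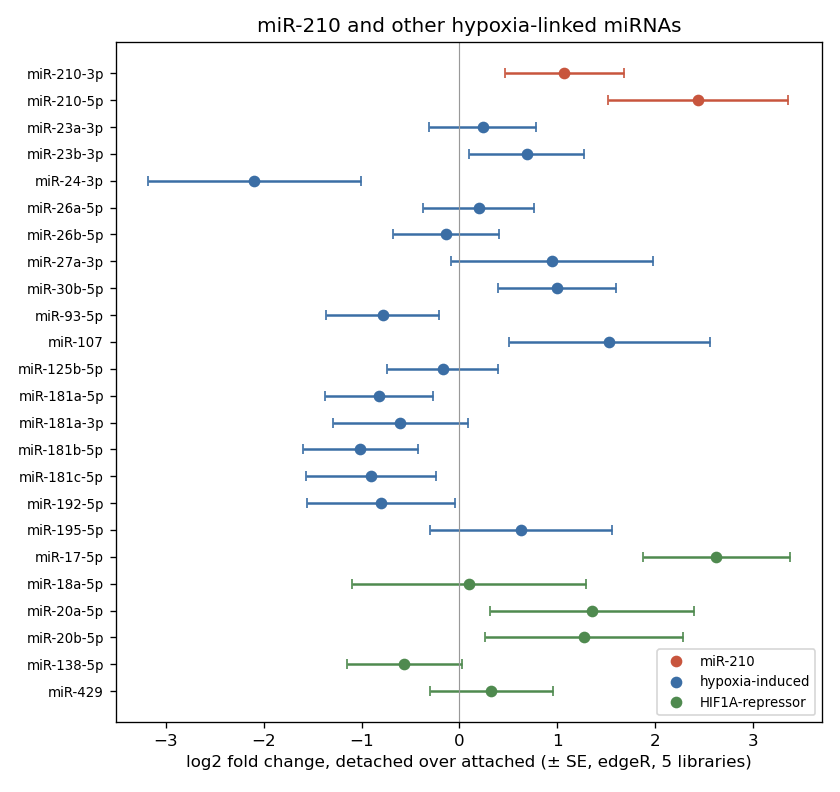
Log2 fold change of detached over attached cells (edgeR, 5 libraries), with bars for the standard error, for miR-210 and for miRNAs reported as hypoxia-induced or as repressors of HIF1A. The hypoxia-induced names lie on both sides of 0, from -2.10 for miR-24-3p to 1.53 for miR-107, and miR-210-5p at 2.44 and miR-17-5p at 2.63 lie farthest to the right.

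The miRNAs whose levels over the 5 libraries most resembled miR-210-3p were taken from 351 tested miRNAs with a mean of at least 10 CPM, by Pearson correlation of log2(CPM + 1), as a description without a test. They were miR-491-5p (r = 0.97), miR-30b-5p (0.97), miR-584-5p (0.95), miR-188-5p (0.95) and miR-324-5p (0.94). Each was low in attached replicates 1 and 2 and higher in attached replicate 3 and in both detached libraries. For example, miR-324-5p stood at 26.1, 21.5 and 123 CPM under attachment and at 138 and 347 CPM without it. Its log2 fold change, 1.93 (SE 0.81), was the largest of the 5, the others running from 0.72 to 1.04. Those closest to miR-210-5p were miR-500a-5p (r = 0.99), miR-4284 (0.99), miR-532-3p (0.98), miR-651-5p (0.97) and miR-2355-5p (0.97), all lowest in attached replicate 2. Their log2 fold changes were 0.50, 1.47, 1.13, -0.02 and 0.68 in that order, all below the 2.44 of miR-210-5p. Correlation does not measure the size of a change: miR-651-5p ran only from 21.0 to 27.4 CPM. The 2 strands of miR-210 correlated with each other at r = 0.85. By that measure miR-210-5p was 18th among 351 in likeness to miR-210-3p, and miR-210-3p was 67th among 351 in likeness to miR-210-5p. All these values share the same 5 libraries and their totals.

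The tables also held 28 miR-210 names of other species, with 0 counts in all libraries together. A row named p-hsa-miR-210 likewise had 0 counts in each library.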

How the data were processed

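The deposited tables hold raw read counts per named small RNA, one per library, not normalized. Per the submitters' processing notes hg38 and DESeq2 were used, in roles left unstated; alignment, counting and how reads matching more than 1 name were placed are not stated in the sources. Per the file headers, the authors' table gives log2 fold changes, p-values, a test score and, as signal, counts divided by size factors. From that signal 100% of values came out as whole reads (tolerance 0.01), all equal to the raw counts; edgeR on them called 0 miRNAs. The 5 summary rows of each table hold 0 counts and were left out. Counts of 2565 human miRNA rows were tested with edgeR 4.0.16 (R 4.3.3; filterByExpr, minimum count 10 and total 15; TMM; quasi-likelihood F test, two-sided; Benjamini-Hochberg over 697 rows, threshold 0.05; SE from log2 fold change and F). Arm ratios used an exact permutation test. edgeR was tested on simulated data. Alternatives were DESeq2 1.42.0, limma 3.58.1 voom, other scalings, filters and rows, a replicate block and leaving out each library; a GC offset, DESeq2 without attached replicate 2 and the recovered reads were added after seeing the data. Hairpins were folded with RNAfold (ViennaRNA 2.7.2). Members and lists were chosen with earlier results of these data known. Genes named are the strands, the 3 smallest p and 3 most abundant in each list, the 3 neighbours in level on each side, the 5 closest patterns and the 3 largest arm changes each way; list members with 0 counts, miR-107 beside its paralog and cell type markers were named besides.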

Additional observations from a re-analysis of the deposited data

How the results depend on the processing

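Over 17 alternatives the log2 fold change of miR-210-3p stayed positive, from 0.77 to 1.59 (adjusted p 0.469 to 0.999), and was called in 0. Over 16 alternatives that of miR-210-5p stayed positive, from 1.93 to 3.75 (adjusted p 0.0138 to 0.999), and was called in 1, DESeq2 without attached replicate 2 (1.98); it did not pass the filter of 100 CPM in 2 libraries and so has no value there. Leaving out 1 library at a time gave 0.77 to 1.52 for miR-210-3p, 1.93 to 3.17 for miR-210-5p and -2.59 to -0.81 for the arm ratio, the last without attached replicate 2. Summing counts over each group gave -1.20, a pseudocount of 0 gave -1.93 and one of 5 gave -1.50. An exact test of 3 against 2 libraries cannot reach 0.05, so its p says nothing on stability. The count of miRNAs called higher was 12 of 949 with DESeq2, 13 of 697 with quality weights and 14 of 1918 without the low-count filter. It was 25 of 675 with DESeq2 without attached replicate 2. The count called lower was 5 and 5 in the last 2 of these settings. Leaving out 1 library gave 0 to 22 higher and 0 to 1 lower. Called members of the HIF1A list were 0 to 1 there. The 1 was without attached replicate 2, of 6 tested, where 3.24% of 679 miRNAs were called higher. DESeq2 without attached replicate 2 also called 1 of 6, where it called 3.7% of 675 higher. Replicate numbers are shared by both groups, but the labels do not say whether they pair libraries. Deviations of same-numbered libraries from their group means correlated at -0.18 and -0.16. These values cannot settle the matter, because 2 detached libraries always deviate from their mean by equal and opposite amounts. With a replicate block the values were 1.59 for miR-210-3p, 3.75 for miR-210-5p and -2.21 for the arm ratio, with 0 miRNAs called. The 4 counts of miR-210-5p in attached replicate 2 limit the precision of its ratio there.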
